A study of Mus musculus and Homo sapiens with 22 samples.

Results

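The exon-skipping variations are places in the human transcriptome where an exon was joined to either of 2 other exons, one nearer and one farther, by exactly 2 splice junctions and with no retained intron. They were taken from the authors' deposited table of local splicing variations in HEK293 cells at 96 h, by their number of junctions and by a type that names 2 different partner exons. This gave 19490 of 107827 variations (18.1%), in 7644 genes. The series holds 22 samples of tau aggregate studies, and only 6 bear on these variations. In 3 of them the cells, a human embryonic kidney line, had received clarified homogenate of P301S mouse brain by transfection and held tau aggregates. The other 3 were labelled mock transfected and without aggregates. All 6 libraries, the mock ones included, came from HEK293 Tau-RD-P301S-CFP/YFP cells, which express a P301S form of the tau repeat domain tagged with CFP or YFP, fluorescent proteins that report aggregation. The labels describe 1 plate for each biological replicate and a shared protocol of 200 ug of WT or P301S homogenate per dish with lipofectamine, so what the mock plates received is not settled by them. The line is 1 established cell line, and whether the transgenic cells are a single clone is not given in the sources used here.

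During splicing, introns are cut out and exons are joined. An exon that is passed over in some transcripts is called a cassette exon, and skipping an exon whose length is not divisible by 3 shifts the reading frame. Splice-site strength and RNA-binding proteins, among them SR proteins and hnRNPs, set how often a cassette is used, and many SR proteins and spliceosome parts gather in nuclear speckles.

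The measure throughout is PSI, the expected share, from 0 to 1, of the variation's reads that used a junction. The skipping junction is the one that spans more bases, and the inclusion junction is the other. A variation is seen either from its upstream exon (a source view, 9350 members) or from its downstream exon (a target view, 10140 members). Of the 16425 distinct skipping junctions, 13360 were seen from 1 side only. For these no cassette exon was shown by a second view, and skipping is a name for the longer junction. The authors' deposited table holds 1 PSI value per group, an expected change of PSI and the probability that the change is at least 0.2. It gives no values of single libraries and no read counts. So no spread between replicates, no SD and no test across libraries can be given for any value below, and the depth behind each value is unknown. A change is the deposited expected change, with aggregates minus mock, and a member is called changed where the deposited probability is at least 0.95. Coordinates are those of hg38, and positions of a junction are the last base of one exon and the first base of the next.

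Skipping differed little between the groups for most members. The expected change was under 0.01 in size for 14302 members (73.4%) and under 0.05 for 93.1%. From the 1st to the 99th percentile the change ran from -0.09 to 0.11. For 12964 members (66.5%) the rarer junction took less than 0.05 of the reads in both groups, so 1 junction took nearly all the reads. The deposited probability called 14 members (0.0718%), 9 with more skipping and 5 with less, in 13 genes. Over all variations of the table the same call was made for 0.115%, so exon skipping was called at no higher a share than the table as a whole. In the shares over all variations, a variation passed if any of its junctions did, so more junctions gave more chances to pass. At a probability of at least 0.5 there were 49 members (0.251%), 32 with more skipping and 17 with less, against 0.39% of all variations. An expected change of at least 0.1 in size was given for 389 members (2%), against 2.69% of all variations. Of these 389, skipping was higher with aggregates in 236 (1.21% of members) and lower in 153 (0.785%). The plain difference of the group PSI values reached 0.1 in more members, 936 (4.8%), 531 with more skipping and 405 with less. The counts below use the deposited change, unless a plain difference is named.

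**Figure D1:**
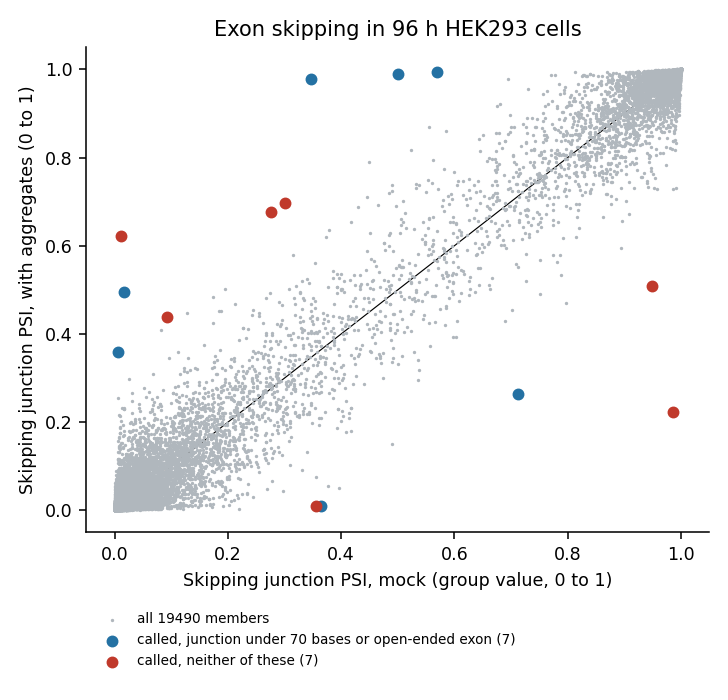
Skipping junction PSI of each of the 19490 members in mock cells (x axis) and in cells with aggregates (y axis), both as deposited group values from 0 to 1. Grey points are members, coloured points are the 14 called ones, and the line marks equal values. Most points lie near the line and in the 2 corners where 1 of the 2 junctions takes nearly all the reads.

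Other kinds of variation in the same table gave different shares. Binary variations that use alternative splice sites of 1 partner exon had no call at 0.95 among 3922, 9 at a probability of at least 0.5 (0.229%), and a change of at least 0.1 in 1.76%. Variations with more than 2 junctions and no retained intron were called in 29 of 12935 (0.224%), and 5.69% had a change of at least 0.1. Variations with a retained intron were called in 81 of 71480 (0.113%), and 2.39% had a change of at least 0.1. A variation was counted if any of its junctions passed, so kinds with more junctions had more chances to pass and are not on equal terms. These shares are descriptions, and their difference was not tested.

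Larger changes were more frequent where both junctions were already in use in mock cells. Where mock skipping was under 0.05, 67 of 8558 members (0.783%) had skipping higher by at least 0.1, and none could be lower by that much. Between 0.2 and 0.5, 43 of 764 members had more skipping and 55 had less, together 12.8%. Between 0.5 and 0.8, 47 of 509 had more and 25 had less, together 14.1%. At 0.95 or above, 21 of 5902 (0.356%) had less skipping. Among the 14 called members, 5 had a mock level between 0.2 and 0.5, 3 between 0.5 and 0.8, 1 between 0.05 and 0.2, and 5 were in the 2 outermost bins, 3 of them under 0.05.

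**Figure D2:**
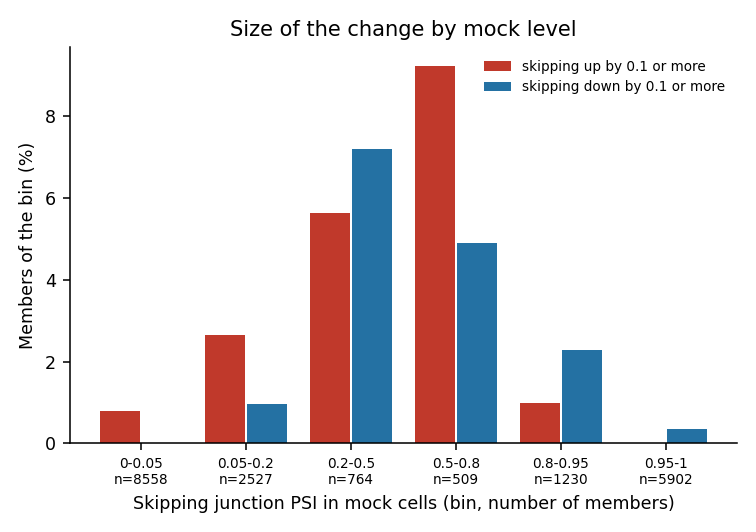
Share of members (y axis, %) whose skipping PSI was higher (red) or lower (blue) with aggregates by at least 0.1, by the skipping PSI in mock cells (x axis, bins with their number of members). The bins from 0.2 to 0.5 and from 0.5 to 0.8 hold the highest shares, 12.8% and 14.1% in both directions together, and the outermost bins can move in 1 direction only.

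Called members with longer junctions included MAPT, the gene of tau itself, which binds microtubules. The exon at chromosome 17, 45991460 to 45991586 on the plus strand, 127 bases long, was joined to an upstream exon that ends at 45987095 or to a nearer one that ends at 45990075. In mock cells the farther junction had a PSI of 0.95 and the nearer one 0.05. With aggregates they were at 0.508 and 0.492. The deposited change of the skipping junction was -0.44 at a probability of 0.992, so the nearer exon was used in about as many reads as it was skipped. No source view with the same skipping junction was found, so the event was seen from the target side only. Whether the nearer exon was itself joined to the farther one was not shown, so a cassette exon was not established here.

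The other 5 MAPT members had smaller changes and were not called. From the exon at 45971859 to 45971945, 87 bases long, the junction that skips the next exon was at 0.815 in mock cells and 0.952 with aggregates, a deposited change of 0.08 at a probability of 0.072. The cassette exon of 54 bases at 45993924 to 45993977 was skipped at a PSI of 0.991 in both groups and in both views. The member that ends at the exon starting at 46018618 had a skipping PSI of 0 in both groups. MAPT was at 113 FPKM, a level scaled by transcript length and library size, in each of the 2 whole-cell libraries of this line at 24 h after transfection with P301S homogenate. The transgenes hold the repeat-domain part of the same gene. The share of reads from them was not tested, for this FPKM level or for any MAPT member.

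ATG2A, a lipid transfer protein of autophagosome formation, was the only called gene with a change of at least 0.1 in both views of a cassette. The exon at chromosome 11, 64903590 to 64903660 on the minus strand, has 71 bases, which is not divisible by 3. Seen from its upstream exon, the skipping PSI was 0.093 in mock cells and 0.438 with aggregates, a deposited change of 0.34 at a probability of 0.956. Seen from its downstream exon, it was 0.045 and 0.226, a deposited change of 0.17 at a probability of 0.312. Both views were higher with aggregates, and only the upstream one passed the call.

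DHRS1, a member of the short-chain dehydrogenase family, was the other called cassette with both views. Its exon at chromosome 14, 24291556 to 24291625 on the minus strand, has 70 bases and is not divisible by 3 either. The upstream view gave a skipping PSI of 0.301 in mock cells and 0.696 with aggregates, a deposited change of 0.38 at a probability of 0.952. The downstream view gave 0.35 and 0.481, a deposited change of only 0.06 at a probability of 0.0652. The 2 views of DHRS1 thus gave changes of the same direction and unlike size.

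KIAA0753, a protein of centrioles and their satellites, was seen from the target side only. The exon that ends the junctions lies at chromosome 17, 6622882 to 6623097 on the minus strand. Its skipping PSI was 0.276 in mock cells and 0.676 with aggregates, a deposited change of 0.39 at a probability of 0.955. The junctions span 509 and 411 bases, so the partner sites are close together.

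In 3 called members the junctions shared no splice site, so the change of partner exon came with a change of the site used in the reference exon. GREB1, a gene first known for its response to estrogen, is one of them. Its junction from 11576932 to 11584817 on chromosome 2, plus strand, had a PSI of 0.011 in mock cells and 0.623 with aggregates, a deposited change of 0.6. Its inclusion junction left the same exon from an inner site at 11576535 and went from 0.989 to 0.377. NBPF14, of the neuroblastoma breakpoint family, had a skipping PSI of 0.355 in mock cells and 0.01 with aggregates, a deposited change of -0.32 at a probability of 0.957. The NBPF genes are near-identical copies of each other, and reads could be split between them, so this value is uncertain. The largest change of all members, -0.76, was in FP236383.1, a long non-coding RNA on chromosome 21 known by a clone name, where the skipping PSI was 0.986 in mock cells and 0.224 with aggregates. A second FP236383.1 member was not called, at 0.952 and 0.732, a deposited change of -0.22 at a probability of 0.626. Its junctions span 4057 and 4056 bases, so the label of skipping rests on nearly equal spans. By exon order the labels are reversed. The junction labelled skipping starts at 8410366, the nearer exon end, and the other starts at 8410039. The junction from the farther exon thus went from 0.048 to 0.268. In the counts this member stands, by span alone, among those with less skipping. Whether reads of FP236383.1 could be split between similar copies was not tested, so its values are uncertain. FP236383.1 lies outside the rule for named genes, which leaves out genes known only by a clone name, and was picked after its values were seen. Across all members 944 shared no end, and 18546 (95.2%) did.

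**Figure D3:**
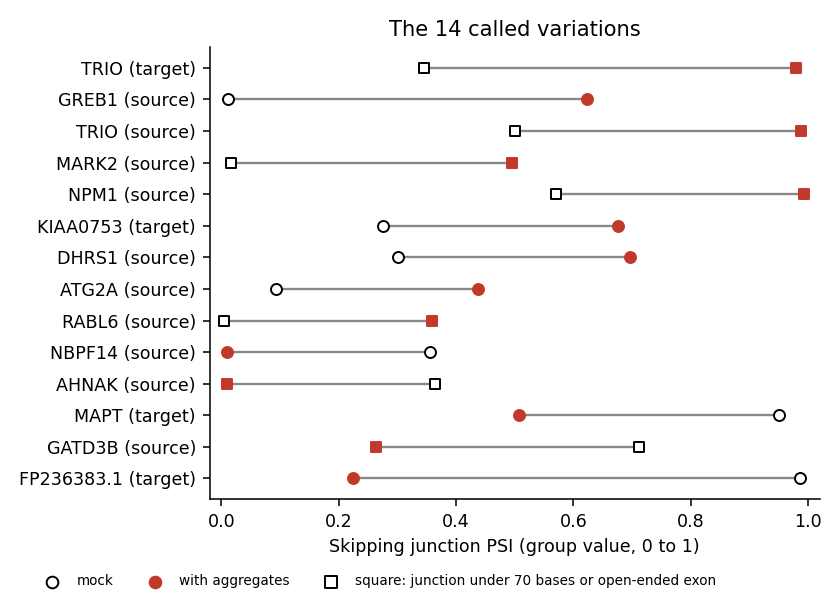
Skipping junction PSI (x axis, 0 to 1) of the 14 called members in mock cells (open) and with aggregates (red), in order of the change, with the view in brackets. Squares mark the 7 members with an inclusion junction under 70 bases or a reference exon with only 1 known border. The 9 upper members have more skipping with aggregates and the 5 lower ones less.

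The remaining 7 called members, 50% of them, had features that were rare among all members. Either their inclusion junction spanned under 70 bases, or their reference exon had only 1 known border (an open-ended exon). These 2 features were found in 178 of the 19490 members (0.913%). In 5 of the 7 the skipping junction spanned exactly 2 times the bases of the inclusion junction, which held for 15 members with short junctions in all. Among those 15, in 11 genes, 5 were called (33.3%) and 46.7% had a change of at least 0.1. This grouping was made after the calls were seen. Among the 19312 members with neither feature, 7 were called (0.0362%) and 1.92% had a change of at least 0.1. Of these last 7, skipping was higher in 4 and lower in 3.

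TRIO, a guanine nucleotide exchange factor, accounts for 2 of the 5. Its 2 variations on chromosome 5, plus strand, share the inclusion junction from 14347294 to 14347346, with 51 bases inside, and are not independent. The target view had a skipping PSI of 0.346 in mock cells and 0.979 with aggregates, a deposited change of 0.64. The source view had 0.5 and 0.989, a deposited change of 0.48. Both skipping junctions span 102 bases.

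MARK2, a kinase that phosphorylates tau and other microtubule-associated proteins, had junctions of 60 and 30 bases that start at 63871356 on chromosome 11. Its skipping PSI was 0.016 in mock cells and 0.496 with aggregates, a deposited change of 0.46 at a probability of 0.98. RABL6, a Rab-like GTPase, had junctions of 86 and 43 bases that start at 136833065 on chromosome 9. Its skipping PSI was 0.005 in mock cells and 0.36 with aggregates, a deposited change of 0.33 at a probability of 0.954. GATD3B, on chromosome 21, had junctions of 56 and 28 bases, and its skipping PSI was 0.712 in mock cells and 0.264 with aggregates, a deposited change of -0.45 at a probability of 0.987. GATD3B has a near-identical copy on the same chromosome, so its value is uncertain.

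NPM1, an abundant nucleolar protein, was at 879 and 895 FPKM in the 24 h whole-cell libraries. It has many processed pseudogenes, to which reads could be split, so its value is uncertain. Its source exon is an open-ended exon that ends at 171403699 on chromosome 5, with junctions of 225 and 49 bases. The skipping PSI was 0.57 in mock cells and 0.994 with aggregates, a deposited change of 0.41 at a probability of 0.996. AHNAK, a very large scaffold protein, also had an open-ended exon, at 62528741 on chromosome 11, with junctions of 786 and 201 bases. The skipping PSI was 0.365 in mock cells and 0.009 with aggregates, a deposited change of -0.34 at a probability of 0.985. In NPM1 and TRIO the inclusion junction was nearly unused with aggregates, and in AHNAK the skipping junction was.

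**Figure D4:**
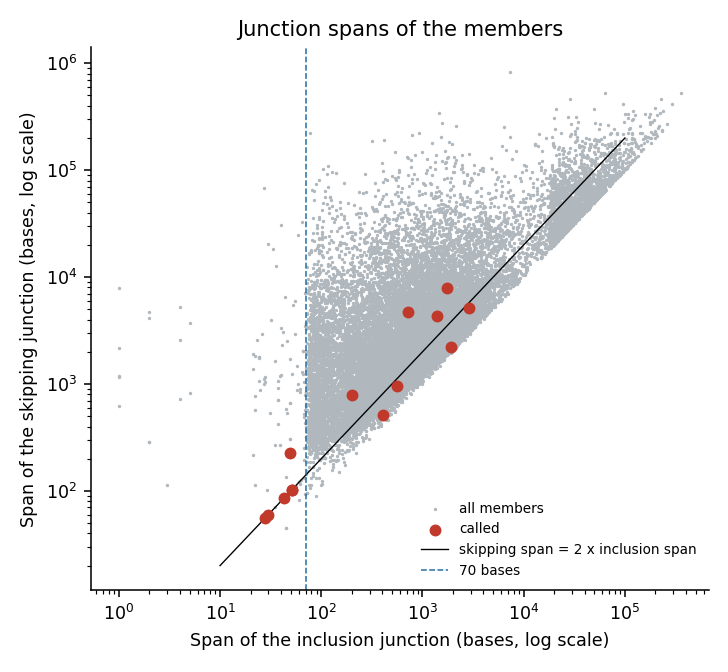
Bases inside the inclusion junction (x axis, log scale) and inside the skipping junction (y axis, log scale) of every member (grey), with the 14 called members in red. The line marks a skipping span of 2 times the inclusion span and the dashed line 70 bases. Of the called members 6 lie left of the dashed line, 5 of them on the line, where few other members lie.

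Short junctions of exact double span also occurred in genes that were not called. CTBP1, a transcriptional corepressor, had junctions of 70 and 35 bases and a skipping PSI of 0.396 in mock cells and 0.05 with aggregates, at a probability of 0.886. DOCK1, an exchange factor for Rac, had junctions of 126 and 63 bases and a skipping PSI of 0.127 and 0.447, at a probability of 0.761. UBE3C, a ubiquitin ligase, had 0.387 and 0.3, and RAB11FIP3, an effector of Rab11, had 0.289 and 0.311 in one of its members. So this junction geometry was found with large and with small differences. What produced these junctions was not tested.

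The members just outside the call were 35 with a probability from 0.5 to 0.95, 23 with more skipping and 12 with less. LRRC34, a leucine-rich repeat protein, had the highest probability among them, 0.919, with a skipping PSI of 0.49 in mock cells and 0.151 with aggregates. RILPL2, a Rab-binding protein of lysosome and cilium traffic, followed at 0.895, with 0.376 and 0.056. Just inside the call were DHRS1, RABL6 and KIAA0753, at 0.952, 0.954 and 0.955. Of the 35, 3 had a short junction or an open-ended exon (8.57%), against 0.913% of all members and 50% of the called ones.

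Skipping junctions seen from both sides were compared between views, although both share the reads of the skipping junction. There were 3065 such pairs among 16425 distinct skipping junctions. Across the 3065 pairs, mock PSI in the source view and in the target view had a Pearson r of 0.991, and the changes had an r of 0.628. The points share libraries and, in part, reads. In 96 pairs at least 1 view had a change of at least 0.1 in size, and in 90 of them both views had the same sign. In 17 pairs both views reached 0.1, 11 with more skipping and 6 with less, and all 17 had the same sign in both.

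Among these 17 pairs, ATG2A was the only one with a call. UNC5C, a netrin receptor, had a skipped exon of 222 bases, with a skipping PSI of 0.184 in mock cells and 0.451 with aggregates from upstream and 0.158 and 0.376 from downstream. PIP5K1C, a lipid kinase of synaptic and focal adhesion sites, had an exon of 33 bases, with 0.378 and 0.635 from upstream and 0.114 and 0.246 from downstream. In UNC5C and PIP5K1C skipping was higher with aggregates in both views, at probabilities under the call.

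The pairs with less skipping included WDPCP, a planar polarity and cilium protein. Its exon of 45 bases had a skipping PSI of 0.356 in mock cells and 0.075 with aggregates from upstream, and 0.298 and 0.044 from downstream. The WDPCP probabilities were 0.699 and 0.665. ANKRD6, an ankyrin repeat protein of Wnt signalling, had an exon of 263 bases, with 0.224 and 0.037 from upstream and 0.269 and 0.048 from downstream. MCC, a gene named for its mutation in colorectal cancer, had an exon of 140 bases that was mostly skipped in mock cells, at 0.973 and 0.908 in the 2 views, and at 0.784 and 0.672 with aggregates.

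**Figure D5:**
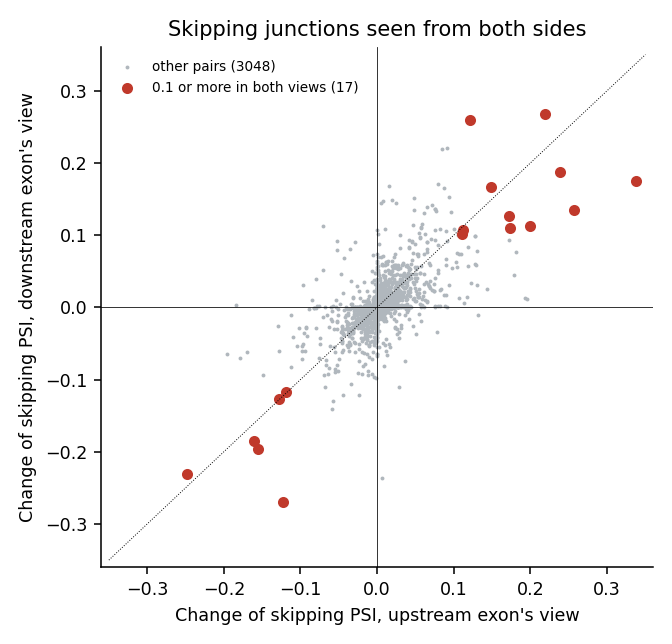
Deposited change of skipping PSI, with aggregates minus mock, in the upstream exon's view (x axis) and the downstream exon's view (y axis) for the 3065 skipping junctions seen from both sides. Red points are the 17 pairs with at least 0.1 in both views, 11 with more skipping and 6 with less, and the dotted line marks equal changes.

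For 2633 pairs the 2 views enclosed a single skipped exon. Its median length was 112 bases, and 43.9% of these exons had a length divisible by 3. Where mock skipping lay between 0.2 and 0.8, 56.2% of 178 exons were divisible by 3, against 42% of 1112 where it was under 0.05. Of the 16 exons with a change of at least 0.1 in both views 7 were divisible by 3 (43.8%), and of the 90 with such a change in either view 34 were (37.8%). These shares are near that of all the exons. Microexons, of at most 30 bases, numbered 77, of which 83.1% were divisible by 3, and 2 had a change of at least 0.1 in either view, none of them in both. They were found most among exons skipped at 0.95 or more in mock cells, where 8.13% of 726 exons were that short. The 2 were in GFRA1 and CADPS2, at deposited changes of 0.14 and 0.11 in the downstream view and of 0.01 and 0.06 in the upstream view, none of them called. GFRA1, a receptor for the growth factor GDNF, had a microexon of 15 bases with a skipping PSI of 0.962 in mock cells and 0.989 with aggregates from upstream, and 0.785 and 0.968 from downstream. CADPS2, a regulator of dense-core vesicle release, had a microexon of 21 bases with a skipping PSI of 0.88 in mock cells and 0.977 with aggregates from upstream, and 0.794 and 0.947 from downstream.

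Genes of the splicing machinery, of nonsense-mediated decay and of RNA processing, in 5 lists, held 180 members. Of these, 1 (0.556%) had a change of at least 0.1, against 2% of all members. None was called, but with 0.0718% of all members called a set of this size would seldom hold a call, so nothing is read from that. In 47 of the 180 (26.1%) the rarer junction took at least 0.05 of the reads in a group, against 33.5% of all members. In SR proteins and SR-like regulators, 17 members in 11 genes held no change of at least 0.1, and the largest was 0.06 in SCAF11, at a skipping PSI of 0.048 in mock cells and 0.14 with aggregates. In the core spliceosome, 44 members in 22 genes held no deposited change of at least 0.1. The largest was 0.09 in U2AF2, which reads the polypyrimidine tract at the end of an intron, at 0.164 and 0.269. In SR protein kinases, 26 members in 12 genes held none. In nonsense-mediated decay and RNA processing, 55 members in 23 genes held none. Among hnRNPs and other repressors, 38 members in 19 genes held 1, in PTBP2, the neuronal relative of the polypyrimidine tract binding protein. Its skipping PSI was 0.205 in mock cells and 0.022 with aggregates, at a probability of 0.219, with a short junction of 50 bases and an open-ended exon.

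Microtubule and motor proteins had 103 members in 29 genes, with 1 higher and 2 lower by at least 0.1 (2.91%, against 2% of all members). MARK2 and MAPT among them were called, against 0.0718% of all members, and nothing particular to the list is read from 2 members. MARK2 is one of the members of exact double span, so 1 call, MAPT, is left without such junctions. The third was MACF1, which links microtubules to actin, at 0.473 in mock cells and 0.3 with aggregates and a probability of 0.182. Cytoskeleton and membrane traffic genes had 180 members in 36 genes, with 3 higher and 1 lower (2.22%) and no call. Their 4 were EXOC7 of the exocyst at 0.116 and 0.309, the membrane adaptor ANK3 at 0.705 and 0.869, the spectrin SPTAN1 at 0.056 and 0.18, and the clathrin adaptor subunit AP1G1 at 0.392 and 0.187.

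The other lists had few or no changes of that size. Chromatin and transcription genes had 126 members and 1 change, in MGA, a MAX partner and transcription factor, at 0.07 in mock cells and 0.246 with aggregates. Apoptosis, DNA damage and cell cycle genes had 91 members, heat shock and unfolded protein genes 40 and neurodegeneration genes 52, with none. GSK3B, a kinase of tau, had the largest deposited change in the neurodegeneration list, -0.08, at 0.982 and 0.879. Over all lists, 9 of 772 members (1.17%) had a change of at least 0.1, 5 with more skipping and 4 with less, and the median plain PSI difference was 0, as over all members, of which 2% had a change of that size.

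The authors' deposited intron table gave another readout of the same 6 libraries, the level of reads inside introns. It was matched to the junctions by coordinates. Of 18814 distinct inclusion junctions 9746 matched an intron and 2796 had an adjusted p, and of 16425 skipping junctions 842 matched and 625 had one. At an adjusted p under 0.05, as the authors' deposited table gives it, 10 inclusion introns were higher with aggregates (0.358%) and 4 lower (0.143%), and 5 skipping introns were higher (0.8%) and none lower. Over all introns with an adjusted p, 1.5% were higher and 0.146% lower. The introns of these members were called higher at a smaller share than introns in general. The members were picked without variations that have a retained intron, so nothing about exon skipping is read from that difference. It was not tested.

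Only 2 of the 14 called members had an intron with an adjusted p, and neither passed. Of the other 12, 9 had no matched intron and 3 had one without an adjusted p, so these could not be among the 19 introns. In the authors' deposited table the intron under the nearer MAPT junction had a log2 change of -0.31 with a standard error of 0.33 and an adjusted p of 0.803. The intron under the ATG2A inclusion junction had a log2 change of 0.18 with a standard error of 0.33 and an adjusted p of 0.909. Where skipping was higher by at least 0.1, 49 of 86 matched inclusion introns had a log2 change above 0, with a median of 0.04. Where skipping was lower by at least 0.1, 21 of 54 did, with a median of -0.16. Of introns matched to skipping junctions, 1 of 13 had a log2 change above 0 where skipping was higher, with a median of -0.24, and 5 of 10 where it was lower, with a median of -0.01. Over inclusion introns as a whole the median log2 change was 0.02, and over skipping introns -0.02. The counts by direction are descriptions, from few introns for the skipping junctions, and were not tested. A called intron was matched to 20 members, none of them called for skipping, and in 18 of these the skipping change was at most 0.0339 in size. The other two were chosen here for their skipping change of at least 0.1. In ARID5B, a chromatin-binding protein, skipping was 0.228 in mock cells and 0.098 with aggregates, at a probability of 0.0591, and the inclusion intron had a deposited log2 change of -0.52 with a standard error of 0.15 and an adjusted p of 0.0307. In AKAP17A, a splicing factor that anchors protein kinase A, skipping was 0.904 and 0.781, at a probability of 0.0305 and with an inclusion junction of 28 bases, and the intron spanned by the skipping junction had a deposited log2 change of 1.33 with a standard error of 0.33 and an adjusted p of 0.0103.

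Host genes were expressed in the same line. In the 2 whole-cell libraries at 24 h, which were made with another kit and have no mock group, 11 of the 13 genes with a call were matched, and all 11 were at 1 FPKM or more in both, with a median of 16.6. Of 6649 matched genes with any member, 97.7% were. For the genes of members with a change of at least 0.1 the median was 7.11 FPKM, against 11.6 for all. Whether the lower level had a part in the size of the changes was not tested. All 7 HEK293 markers were at 1 FPKM or more in these libraries. None of 4 blood, 2 liver and 2 astrocyte markers was, and 1 of 3 neuronal markers, SYT1, was at 3.49 and 3.65 FPKM. Their part in the 96 h libraries was not tested.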

How the data were processed

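The aligner was STAR 2.6.0c and the build hg38 (GRCh38), per the submitters' processing notes. The authors deposited a MAJIQ table of the 96 h cells with other values, per the file headers: PSI of each group, the expected change and its probabilities, with the replicates of a group combined. The intron table, from iREAD by its name, holds the authors' deposited mean normalized count (signal), log2 change, standard error, p-value and adjusted p-value per intron. The sign of its log2 change is not stated in the header and was taken as aggregates minus mock, since 82 of 83 retained introns with an intron PSI change of at least 0.05 and an adjusted p under 0.05 had the same sign in both tables. The 24 h whole-cell files hold the authors' FPKM, scaled to the length of each gene's longest transcript per the file headers. For MAJIQ and iREAD, version and settings were not given in the sources used here.

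Members were read with pandas 2.3.3 in Python 3.11.15, and the reading was tested on simulated rows. The longer junction was taken as the skipping one, and source and target views with the same skipping junction in 1 gene were paired. Gene symbols came from the intron table, for 18275 members, and 1215 had none. No test was fitted, because the tables hold no values of single 96 h libraries. The second deposited probability, of a change of at most 0.05, was not used, since it was under 0.05 for 5591 members (39.1%) with a change under 0.01. No sequences are shown, since no human genome was used here. Members, lists and rules were chosen with earlier results of these data known. Named were up to 15 called members per direction (genes known only by a clone name or identifier left out), called members in listed genes or seen from both sides, up to 10 uncalled members of listed genes with a change of at least 0.1, and the 3 members nearest to the call on each side. Members of the pairs, of double junction span, microexons, those with called introns, and the largest change of a list were added after their values were seen. Alternatives covered the call rule, the members counted, the intron threshold and the FPKM minimum.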

Additional observations from a re-analysis of the deposited data

How the results depend on the processing

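The 14 called members became 49 at a probability of at least 0.5, 389 at an expected change of at least 0.1 and 49 at one of at least 0.2. By the plain difference of group PSI, 936 members reached 0.1 and 109 reached 0.2. The 14 called members also changed in number with the members counted. They became 7 with 1 splice site per exon (4 with more skipping), 2 where the skipping junction was seen from both sides, and 7 without inclusion junctions under 70 bases or open-ended exons (4 with more skipping), an alternative chosen after seeing the data. The median deposited change over all members was 7.8e-16, and 0.0039 without members whose rarer junction was under 0.05 in both groups. Over the called members only it was 0.36, a value shaped by the call, which picks large changes. In plain PSI difference the median over all members was 0. The 19 called flanking introns became 5 at an adjusted p under 0.01 in the authors' deposited table. None of the 2 called cassettes had a length divisible by 3, and nothing is read from 2 exons. Of the 90 with a change of at least 0.1 in either view 34 had such a length, and of all 2633 exons 43.9%. The count of 11 host genes at 1 FPKM or more stayed at 11 to 11 when either 24 h library was left out. No direction reversed in the alternatives run.

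No paired analysis was possible because the splicing and intron tables hold group values only. For the same reason leaving out a 96 h library was not run. Leaving out junctions absent from the annotation was not run, since no column used here marks them. The depth behind each PSI is unknown, so a member with few reads cannot be told from one with many, except through the deposited probability.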
